A study of Mus musculus with 8 samples.

Results

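The muscle atrophy ubiquitin ligases described here are 7 genes, Trim63, Fbxo32, Fbxo30, Fbxo31, Nedd4, Traf6 and Cblb, out of 17847 genes in the expression table of muscle stem cells from mice. They were picked by symbol, and the group was chosen because Trim63 had the largest increase in Cox10-/- cells of all genes tested. The difference between genotypes thus entered the choice, and the values of the 7 genes are given as a description, without tests. All 7 had a row in the table, and all 7 passed the filter on low values (a value above 0 in at least 4 of the 8 libraries). Trim63 passed it through its Cox10-/- libraries alone.

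RNA was sequenced from 4 Cox10-/- and 4 wild-type samples of cells sorted from digested skeletal muscle as CD34-positive, with cells that carried CD31, CD45 or Sca1 or took up DAPI (a dye that marks dead cells) left out. In the Cox10-/- mice (C57Bl/6 strain), a floxed Cox10 allele was deleted by a Cre recombinase that the Pax7 gene drives and tamoxifen activates. The wild-type mice were of the same strain, and the labels do not state whether they carried the Cre or the floxed allele. Tamoxifen was given to the mice as 1 intraperitoneal injection of 200 mg/kg, followed 2 days later by collection of the cells. The Pax7 driver confines Cre to cells that express Pax7, and how many cells of a sample had lost Cox10 was not measured. The labels number 4 replicates per genotype and do not say that each is an animal of its own, so p-values measure the spread between these samples.

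Ubiquitin ligases (E3 enzymes) choose the proteins that are tagged with ubiquitin, either for breakdown by the proteasome or for signalling. In wasting skeletal muscle, insulin and IGF1 signalling weakens, FoxO transcription factors enter the nucleus and, often together with the glucocorticoid receptor, switch on a small set of ligase genes. Trim63 (MuRF1) and Fbxo32 (atrogin-1, also MAFbx) are the most widely used markers of that programme, which is best known in muscle fibres and is less described in muscle stem cells.

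Of the 6 members with a promoter entry, only Trim63 has a promoter that carries binding letters for both kinds of factor. The stretch is shown for that reason. The sequence comes from RefSeq, build GRCm38.p6, chr4:134314870-134315169 on the plus strand, and covers 250 bases before and 50 bases after the gene's start. Capitals mark a glucocorticoid receptor hexamer (AGAACA on the other strand, 200 bases before the start) that directly abuts a FoxO motif (GTAAACA on the other strand, 194 bases before the start).
Trim63 promoter: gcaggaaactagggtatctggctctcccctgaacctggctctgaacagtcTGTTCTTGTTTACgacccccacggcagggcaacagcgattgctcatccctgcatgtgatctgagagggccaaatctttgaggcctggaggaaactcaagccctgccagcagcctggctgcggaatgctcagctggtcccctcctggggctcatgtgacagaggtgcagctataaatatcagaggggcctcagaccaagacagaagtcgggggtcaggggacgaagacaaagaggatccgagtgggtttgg
Promoter entries were found for 6 of the 7 genes, and Fbxo32 was not among them. Searched on both strands, the FoxO letters occurred in 3.65% of 32851 promoters of the same length, the glucocorticoid receptor hexamer in 19.0%, and both together in 0.877%. Both motifs at most 3 bases apart, a distance chosen after the Trim63 sequence was seen, occurred in 8 promoters, or 0.0244%. Of the 8 genes concerned, Trim63 and Gsap were in the expression table, and Gsap fell by 1.47 ± 0.23 (log2, SE; limma, adjusted p = 0.00112). The Trim63 stretch also held 3 E-boxes (CANNTG), a motif found in 72.3% of promoters. Among the other members, 1 of the 2 Nedd4 promoters held the glucocorticoid receptor hexamer, 216 bases before its start. The promoters of Fbxo30, Fbxo31, Traf6 and Cblb and the other Nedd4 promoter held neither the FoxO letters nor the hexamer in these windows. A match describes letters and is not a measured binding site.

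Values are log2 CPM, the log2 of a gene's counts per 1000000 reads counted in genes (CPM). The authors' table writes every CPM of 1 or less as 0. Reads counted in genes ranged between 1693349 and 4348650 in Cox10-/- libraries and between 2148645 and 4650051 in wild-type libraries. Cox10, an enzyme of haem A synthesis, averaged 3.18 ± 0.76 in Cox10-/- and 3.80 ± 0.31 in wild-type cells (log2 CPM, SD, n = 4 each), and this difference did not pass the test (limma, adjusted p = 0.246). These values rest on 7 to 56 reads in Cox10-/- and 23 to 81 in wild-type libraries, and the table gives 1 value per gene, so it does not show how much of the floxed part was left. Pax7, the defining factor of muscle stem cells, was present in all 8 libraries, at 7.33 ± 0.18 in Cox10-/- and 8.62 ± 0.15 in wild-type cells (adjusted p = 1.9e-05). Across 17801 genes, limma called 1349 higher (7.58%) and 1514 lower (8.51%), together 16.1% of those tested. With each library centred on its median, the calls were 1764 higher and 1259 lower. Within each genotype replicate 1 was most like replicate 2 and replicate 3 most like replicate 4. When each such pair was averaged, leaving 2 values per genotype, 858 genes were called. In bulk RNA, fewer cells of a type and less RNA per cell cannot be told apart.

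Trim63, a RING-type ligase that sits at the sarcomere and marks myosin and other thick-filament proteins for breakdown, was present in every Cox10-/- library and at the floor in every wild-type library. It stood at 5.65, 5.72, 6.16 and 6.10 log2 CPM in Cox10-/- replicates 1 to 4, and was listed at 0 in all 4 wild-type replicates. On the linear scale these were 50.2, 52.7, 71.5 and 68.6 CPM in Cox10-/- cells, against at most 1 CPM in wild-type cells. The genotypes did not overlap, and replicates 3 and 4 lay above replicates 1 and 2 among the Cox10-/- libraries, by 0.445 on average (log2 CPM).

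The Trim63 values rest on 217, 229, 222 and 116 reads in Cox10-/- replicates 1 to 4. At the depth of the wild-type libraries the floor allows up to 3, 2, 4 and 4 reads in replicates 1 to 4, so a low level there was not detectable and is not shown to be absent. Set against the floor of 1 CPM, the Cox10-/- level was at least 50.2-fold higher in its lowest library and at least 71.5-fold higher in its highest. The next largest increases among all genes were those of Scin, 3.78, and Aspg, 3.56 (log2 CPM, Cox10-/- minus wild-type).

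Genes at the floor in 1 whole genotype are limited by the table itself, whose smallest mean over the 8 libraries was 0.5 log2 CPM. A gene at 0 in 1 genotype is thus listed only where the other genotype raises its mean, and the counts are a description. Of 38 genes listed at 0 in all 4 wild-type libraries, 32 were above 0 in all 4 Cox10-/- libraries. Trim63 had the highest Cox10-/- mean among them, 5.91, which restates why the group was chosen, followed by Gm10212 with 2.48 (log2 CPM). In the other direction, 35 genes were listed at 0 in all 4 Cox10-/- libraries, and the highest wild-type mean among them was 2.91, for Gm26834.

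**Figure D1:**
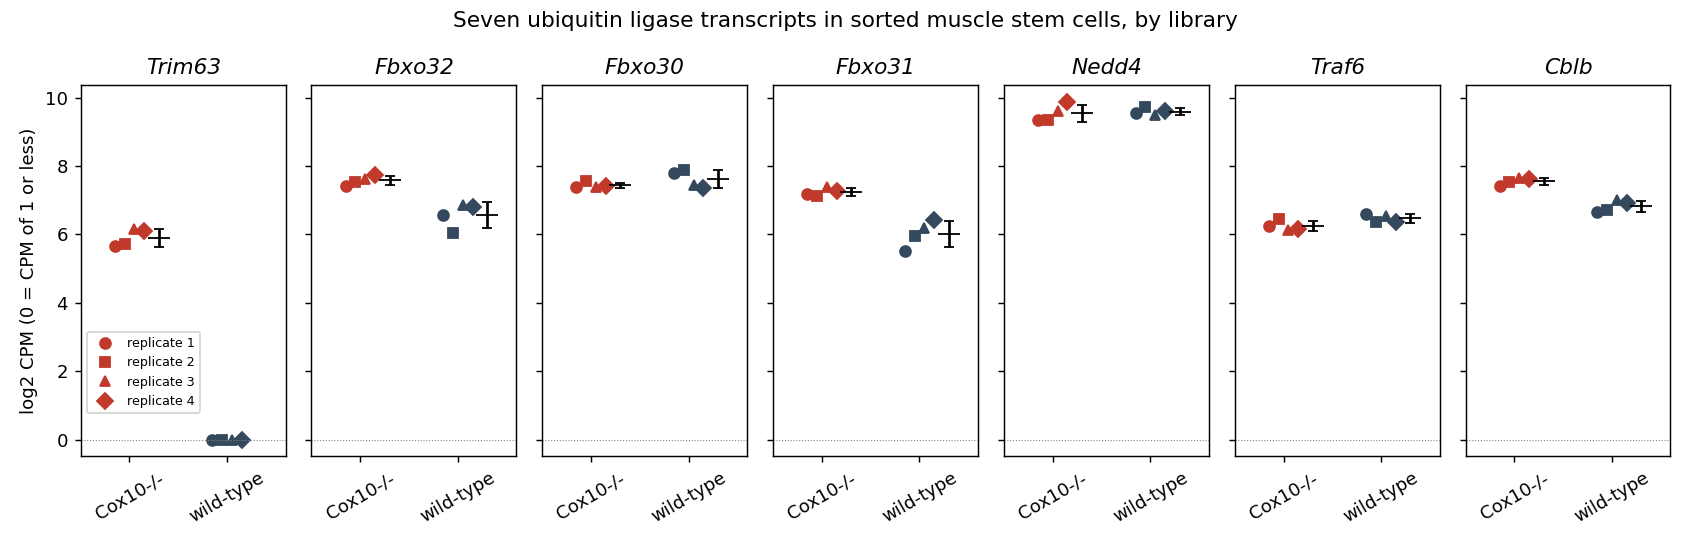
Log2 CPM of the 7 ligases in each library, Cox10-/- left and wild-type right in every panel, with symbols for replicates 1 to 4 and a bar for the mean. All Cox10-/- libraries lie above all wild-type libraries for Trim63, Fbxo32, Fbxo31 and Cblb, and the genotypes overlap for Fbxo30, Nedd4 and Traf6.

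Muscle fibre transcripts were present in both genotypes, and Trim63 was above the floor in Cox10-/- libraries only. The summed level of 19 myofibre markers lay between 455.7 and 931.6 CPM in Cox10-/- libraries and between 480.6 and 1210.5 CPM in wild-type libraries. Acta1, skeletal muscle actin, had 5.24, 5.02, 6.10 and 6.48 log2 CPM in Cox10-/- replicates 1 to 4, against 5.42, 4.42, 5.5 and 5.70 in wild-type replicates 1 to 4. The Acta1 levels and the marker sums, which a few abundant markers carry, overlapped between genotypes. The median difference of the 19 markers was 0.557 (12 above 0, 7 below), against -0.055 for all genes (log2). Replicates 1 and 2 alone gave 0.48 and replicates 3 and 4 alone 0.69, against 0.05 and -0.15 for all genes. Of the 19 markers, 2 rose (Tnnt3 and Ckm), 2 fell (Ryr1 and Tnnt1) and none was at 0 in all 8 libraries. Together this was 21.1% called, against 16.1% of all genes. Within Cox10-/- libraries the marker sum and Trim63 were both higher in replicates 3 and 4 (891.7 and 931.6 CPM for the markers) than in replicates 1 and 2 (514.0 and 455.7 CPM). The sum of 10 fibro-adipogenic markers followed the same replicates, with 5657 and 7877 CPM in Cox10-/- replicates 3 and 4 and 3918 and 3909 CPM in replicates 1 and 2. The sums of Schwann, endothelial, immune and muscle stem cell markers were instead lower in Cox10-/- replicates 3 and 4. Schwann cell markers, for example, had 259.5 and 233.3 CPM there, against 458.5 and 413.1 CPM in replicates 1 and 2. Mural cell markers did not separate these replicates. The part of fibre or fibro-adipogenic RNA in the Trim63 level was not tested.

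**Figure D2:**
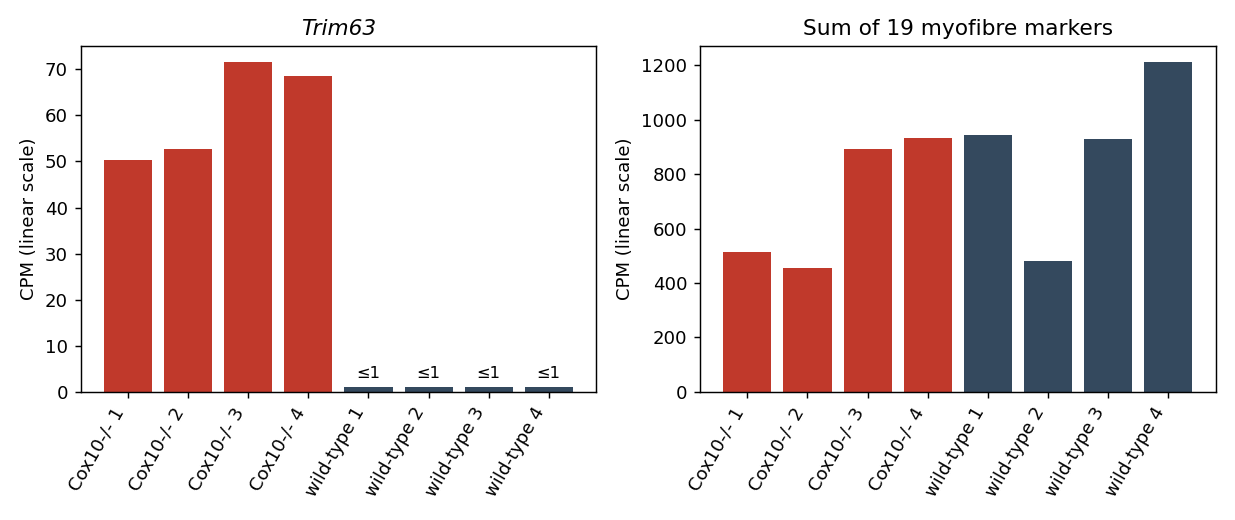
Linear CPM of Trim63 (left) and of the sum of 19 myofibre markers (right) in each library, Cox10-/- bars left of wild-type bars. Trim63 lies between 50.2 and 71.5 CPM in Cox10-/- and at most at 1 CPM in wild-type libraries. The marker sums of the genotypes overlap, and the median log2 difference of the 19 markers was 0.557.

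Marker sums of muscle stem cells, mural cells and endothelial cells lay apart between genotypes, and those of fibro-adipogenic, Schwann and immune cells overlapped. Summed muscle stem cell markers (12 genes, of which 7 fell and none rose) lay between 1882 and 2070 CPM in Cox10-/- and between 2900 and 3729 CPM in wild-type libraries. Mural cell markers (8 genes, 2 rose, 2 fell) summed to between 1077 and 1309 CPM in Cox10-/- and between 714.0 and 955.4 CPM in wild-type libraries. Endothelial markers (10 genes, 3 rose, none fell) summed to 349.6 to 450.1 CPM in Cox10-/- and 268.2 to 335.7 CPM in wild-type libraries. Fibro-adipogenic markers (10 genes, 2 rose, 1 fell) reached 3909 to 7877 CPM in Cox10-/- and 3788 to 5015 CPM in wild-type libraries. Schwann cell markers (6 genes, 1 rose, none fell) summed to 233.3 to 458.5 CPM in Cox10-/- and 197.6 to 452.4 CPM in wild-type libraries. Immune markers (4 of 10 listed had a row, none called) summed to 27.7 to 47.4 CPM in Cox10-/- and 25.6 to 35.2 CPM in wild-type libraries. Of all genes tested, 7.58% rose and 8.51% fell. No marker was at 0 in all 8 libraries, and the part of these cell types in the ligase levels was not tested.

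The other RING-type members are Cblb and Traf6. Cblb, which in wasting muscle of mice marks the insulin receptor substrate IRS1 for breakdown and so dampens IGF1 signalling, stood at 7.42, 7.53, 7.64 and 7.63 log2 CPM in Cox10-/- replicates 1 to 4, against 6.67, 6.72, 7.0 and 6.92 in wild-type replicates 1 to 4. Every Cox10-/- library lay above every wild-type library, and the libraries of each genotype lay close together. The difference was 0.73 ± 0.10 (log2, SE of the fit), a 1.66-fold higher level.

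Traf6, which builds signalling chains of ubiquitin downstream of interleukin-1 and Toll-like receptors and is needed for full muscle wasting in mice, was not set apart by genotype. It had 6.24, 6.44, 6.12 and 6.15 log2 CPM in Cox10-/- replicates 1 to 4, against 6.60, 6.36, 6.55 and 6.37 in wild-type replicates 1 to 4. Only Cox10-/- replicate 2 reached into the wild-type range, and the difference was -0.23 ± 0.11 (log2, SE).

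Fbxo32, Fbxo30 and Fbxo31 encode F-box proteins, the parts that pick substrates for the SCF ligase built on cullin 1. Fbxo32, whose known targets include MyoD and the translation factor eIF3f, had 7.43, 7.53, 7.63 and 7.75 log2 CPM in Cox10-/- replicates 1 to 4, against 6.56, 6.05, 6.86 and 6.80 in wild-type replicates 1 to 4. The genotypes did not overlap, and wild-type replicate 2 was the lowest of all 8 libraries. The difference was 1.02 ± 0.16 (log2, SE), a 2.02-fold higher level. It was 0.84 at the least when any 1 library was left out. Without the 2 shallowest libraries, one of which is wild-type replicate 2, it was 0.79.

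Fbxo31, best known for directing the breakdown of cyclin D1 after DNA damage, showed the largest difference after Trim63 among the 7. Its levels were 7.17, 7.12, 7.39 and 7.27 log2 CPM in Cox10-/- replicates 1 to 4, against 5.52, 5.96, 6.18 and 6.42 in wild-type replicates 1 to 4. The genotypes did not overlap, with a narrow range in Cox10-/- and a spread of almost 1 log2 unit in wild-type cells. The difference was 1.22 ± 0.16 (log2, SE), a 2.33-fold higher level.

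Fbxo30 (MUSA1), a ligase that is needed for wasting of denervated muscle in mice and is held down by BMP signalling there, was not set apart by genotype. It had 7.40, 7.55, 7.38 and 7.43 log2 CPM in Cox10-/- replicates 1 to 4, against 7.79, 7.89, 7.46 and 7.35 in wild-type replicates 1 to 4. The genotypes overlapped, and the difference was -0.18 ± 0.12 (log2, SE). Wild-type replicates 1 and 2 were higher than every Cox10-/- library, whereas wild-type replicate 4 was the lowest of all 8.

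Nedd4, a HECT-type ligase that carries ubiquitin on its own catalytic cysteine and acts on Pax7 and Notch1 among other proteins, was the most abundant of the 7 and differed least. Its levels were 9.35, 9.36, 9.61 and 9.88 log2 CPM in Cox10-/- replicates 1 to 4, against 9.54, 9.73, 9.5 and 9.60 in wild-type replicates 1 to 4. The wild-type range lay inside the Cox10-/- range. The difference was -0.04 ± 0.12 (log2, SE), and its sign changed with the scaling, to 0.04 with each library centred on its median.

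Of the 7, 4 were higher in Cox10-/- cells without overlap and none was lower without overlap. Over all genes tested, 9.3% were higher without overlap, 11.8% were lower without overlap and 21.1% did not overlap in either direction. The median difference of the 7 was 0.73, that of all genes -0.055 (log2). Because the difference between genotypes entered the choice of the group, the count is a description only. Nearest to the point where genotypes begin to overlap, Cblb was separated by a gap of 0.42 log2 units, and Traf6 overlapped by 0.08.

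**Figure D3:**
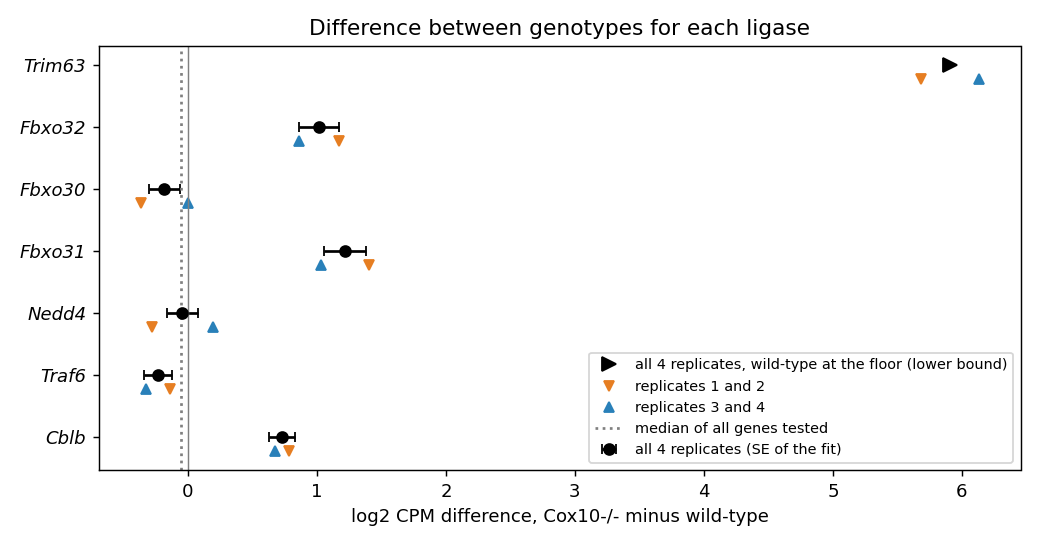
Log2 CPM difference, Cox10-/- minus wild-type, for each ligase, with all 4 replicates (circles, bars are the SE of the fit; the Trim63 arrow is a lower bound) and with replicates 1 and 2 or 3 and 4 alone (triangles). The Trim63, Fbxo31, Fbxo32 and Cblb differences lie between 0.68 and 6.13 in both pairs of replicates, and those of Fbxo30, Nedd4 and Traf6 lie between -0.36 and 0.20.

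For the 4 ligases without overlap, each pair of like replicates gave a higher level in Cox10-/- cells. Replicates 1 and 2 alone gave differences of 1.40 for Fbxo31 and 0.78 for Cblb, and replicates 3 and 4 alone gave 1.03 and 0.68 (log2). Nedd4 differed by -0.28 in replicates 1 and 2 and by 0.20 in replicates 3 and 4, so its sign differed between the pairs.

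Per exon length, on a scale of CPM per kilobase of all annotated exons of a gene, the order of the ligases changed between genotypes. The transcripts in use can be shorter and were not measured, so levels of different genes compare only roughly. In Cox10-/- cells the geometric means were 68.3 for Nedd4, 33.4 for Fbxo30, 27.5 for Fbxo31, 27.5 for Fbxo32, 21.1 for Trim63, 18.0 for Cblb and 9.57 for Traf6. Neighbours in this order overlapped between libraries for Fbxo31 and Fbxo32, for Fbxo32 and Trim63, and for Trim63 and Cblb. In wild-type cells they were 70.4 for Nedd4, 37.9 for Fbxo30, 13.6 for Fbxo32, 11.8 for Fbxo31, 11.2 for Traf6, 10.8 for Cblb and at most 0.352 for Trim63. Nedd4 and Fbxo30 stood apart at the top in both genotypes, and the 4 genes from Fbxo32 to Cblb overlapped with their neighbours in wild-type cells. Trim63, last in wild-type cells, thus reached the range of Fbxo32 and Cblb in Cox10-/- cells on this scale.

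Of 8 family mates of the members, 6 did not pass the test and 2, Traf2 and Traf3, fell. Trim55 (MuRF2), a sarcomere ligase of the same small family as Trim63, averaged 1.95 ± 0.31 in Cox10-/- and 2.09 ± 1.42 in wild-type cells (log2 CPM, SD, n = 4 each; limma, adjusted p = 0.898). It was listed at 0 in wild-type replicate 2 alone, and its other wild-type values were 2.42, 2.95 and 2.99. Without the 2 shallowest libraries, one of which is that replicate, it differed by -0.99 and passed the test (adjusted p = 0.0391). Fbxo25, the nearest relative of Fbxo32, differed by -0.37 ± 0.18 (adjusted p = 0.196), and Fbxo40, a ligase for IRS1 in muscle, by 0.22 ± 0.46 (adjusted p = 0.785). Nedd4l and Itch, HECT ligases of the Nedd4 family, differed by 0.06 ± 0.09 and 0.10 ± 0.08 (adjusted p = 0.717 and 0.444). Cbl, the sister of Cblb, was 0.20 ± 0.09 higher with no overlap between genotypes, and did not pass the test (adjusted p = 0.143). Whether these differences differ from those of the members was not tested.

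Traf3, which restrains non-canonical NF-kB signalling, fell by 0.96 ± 0.13 (log2, SE; limma, adjusted p = 4.91e-04). It had 5.71, 5.45, 5.4 and 5.37 log2 CPM in Cox10-/- replicates 1 to 4, against 6.65, 6.13, 6.47 and 6.50 in wild-type replicates 1 to 4, without overlap. Traf2, which links TNF receptors to survival signalling, fell by 0.67 ± 0.20 (adjusted p = 0.0384), a call that was lost in 5 of the 8 fits that leave out 1 library and with the 2 means per genotype (adjusted p = 0.151). Of 21 genes in a list of the TRAF family and its partners, Traf6 left out, 2 rose (Tifa by 0.87 ± 0.21 and Traf1 by 1.02 ± 0.31) and 3 fell (Traf3, Traf2 and the kinase Irak1). The list had 23.8% of its genes called, against 16.1% of all genes, and its median was -0.055, equal to that of all genes. Leaving out 1 library removed the Irak1 call in 6 of 8 cases and the Traf1 call in 7.

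Across the lists drawn around the 7 ligases (258 distinct genes, members left out), 39 genes rose and 15 fell, 20.9% in all, against 16.1% of all genes. With the 2 means per genotype, 21 list genes were called (14 rose, 7 fell). These were Hecw2, Traf3, Cand2, Fbxl20, Klf15, Ppargc1a, Fkbp5, Bnip3, Map1lc3b, Ctsl, Insr, Igf1, Fst, Il6ra, Il1r1, Bmp7, Myod1, Mybpc1, Nebl, Pax7 and Ccnd1, and the other list calls named here did not hold in that fit. That fit has 2 values per genotype and no term for the replicate pairs. A call lost there does not show that a gene is unchanged.

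Of 19 other ligases known in muscle, only Ubr2, a ligase of the N-degron pathway that is induced in cancer wasting, rose (0.41 ± 0.08, log2, SE; adjusted p = 0.00345), and none fell (median -0.11). With the 2 means per genotype the Ubr2 call was lost (adjusted p = 0.141). Of these 19 ligases 5.26% were called, against 16.1% of all genes. Of 10 genes of the NEDD4 family, 2 rose and none fell (median 0.08). Hecw2, a HECT ligase, rose by 1.70 ± 0.16 (adjusted p = 4e-05). Smurf1, which targets Smad proteins, rose by 0.39 ± 0.11 (adjusted p = 0.0293), a call that did not hold in 4 of the 8 fits that leave out 1 library.

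Of 32 genes of the SCF core and other F-box proteins, 1 rose and 3 fell, beside 16.1% called of all genes (median -0.086). Fbxl20, an F-box protein, rose by 0.65 ± 0.13 (adjusted p = 0.00505). Cand2, a relative of the cullin exchange factor Cand1, fell by 1.31 ± 0.26 (adjusted p = 0.00578), and Skp2, the F-box protein that removes the cell cycle inhibitor p27, fell by 1.02 ± 0.24 (adjusted p = 0.0126). Uba3, the catalytic subunit of the enzyme that activates NEDD8, fell by 0.53 ± 0.15 (adjusted p = 0.0302), a call lost in 4 of the 8 fits. Of 32 genes for ubiquitin, E1 and E2 enzymes, the E2 enzyme Ube2r2 rose by 0.38 ± 0.11 (adjusted p = 0.035) and the E1 enzyme Uba1 fell by 0.27 ± 0.08 (adjusted p = 0.0308). Both of these calls, 6.25% of that list, were lost in 5 of the 8 fits (median of the list 0.037). Of 18 deubiquitinases and ubiquitin receptors, Usp1 rose by 0.65 ± 0.12 (adjusted p = 0.00355, and 0.0602 with the 2 means) and none fell (median 0.001). This was 5.56% of that list, against 16.1% of all genes.

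Transcription factors that are known to control the atrophy ligases were mixed, with 5 of 28 higher and 2 lower (median 0.115). Klf15, which the glucocorticoid receptor induces in muscle and which itself activates Trim63 and Fbxo32 in rodents, had 6.79, 6.83, 7.09 and 7.17 log2 CPM in Cox10-/- replicates 1 to 4, against 5.36, 5.75, 5.94 and 6.12 in wild-type replicates 1 to 4. It rose by 1.18 ± 0.16 without overlap (adjusted p = 3.97e-04). Ppargc1a, a coactivator of mitochondrial genes that holds back FoxO3 activity, rose by 0.83 ± 0.15 (adjusted p = 0.00368). The transcripts of the FoxO factors themselves were not called higher. Foxo1 differed by 0.11 ± 0.11 (adjusted p = 0.525), Foxo3 by 0.24 ± 0.11 (adjusted p = 0.168), and Foxo4 fell by 0.36 ± 0.10 (adjusted p = 0.0242, lost in 4 of the 8 fits and with median centring). Nr3c1, the glucocorticoid receptor, differed by -0.16 ± 0.09 (adjusted p = 0.248). Myog, which activates Trim63 and Fbxo32 in denervated muscle, fell by 1.51 ± 0.42 (adjusted p = 0.0285, lost in 5 of the 8 fits). Twist1, Smad4 and Hdac5 also rose, and leaving out 1 library removed these calls in 5, 6 and 7 of 8 cases.

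The list with the most calls was that of other genes that FoxO factors or glucocorticoids induce in wasting muscle. Of 35 genes, 14 rose and none fell, so that 40.0% were called, against 16.1% of all genes (7.58% higher and 8.51% lower). Above 0 lay 28 of the 35 (median 0.392, against -0.055 for all genes). This list, like the others, was chosen with earlier results of these data known. Insr, the insulin receptor, stood at 8.66, 8.78, 8.77 and 8.76 log2 CPM in Cox10-/- replicates 1 to 4, against 7.64, 7.67, 7.76 and 7.61 in wild-type replicates 1 to 4, and rose by 1.07 ± 0.08 (adjusted p = 5.64e-06). Bnip3, a mitophagy receptor that hypoxia also induces, rose by 1.59 ± 0.19 (adjusted p = 1.83e-04), and Map1lc3b, the LC3 protein of autophagosomes, by 0.59 ± 0.09 (adjusted p = 9.84e-04). Besides these and Klf15, chosen after their values were seen, the glucocorticoid-induced genes Fkbp5 (0.80 ± 0.16), Zbtb16 (0.43 ± 0.11) and Ddit4 (0.47 ± 0.13), the FoxO targets Pdk4 (0.60 ± 0.13), Ccng2 (0.54 ± 0.12) and Sesn1 (0.59 ± 0.13), and the autophagy and lysosome genes Ulk1 (0.47 ± 0.08), Gabarapl1 (0.57 ± 0.12), Bnip3l (0.39 ± 0.10) and Ctsl (0.93 ± 0.17) rose. The other 21 genes of the list were not called, among them Tsc22d3, Per1, Mt1, Mt2, Cdkn1b, Txnip, Sesn3, Gadd45a and Eif4ebp1. Leaving out 1 library removed the Ddit4 call in 4 of 8 cases and the Zbtb16 call in 2. The count of rises was between 12 and 16 when any 1 library was left out and 6 with the 2 means per genotype, and the median was 0.52 in replicates 3 and 4, with 0.19 in the other pair.

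**Figure D4:**
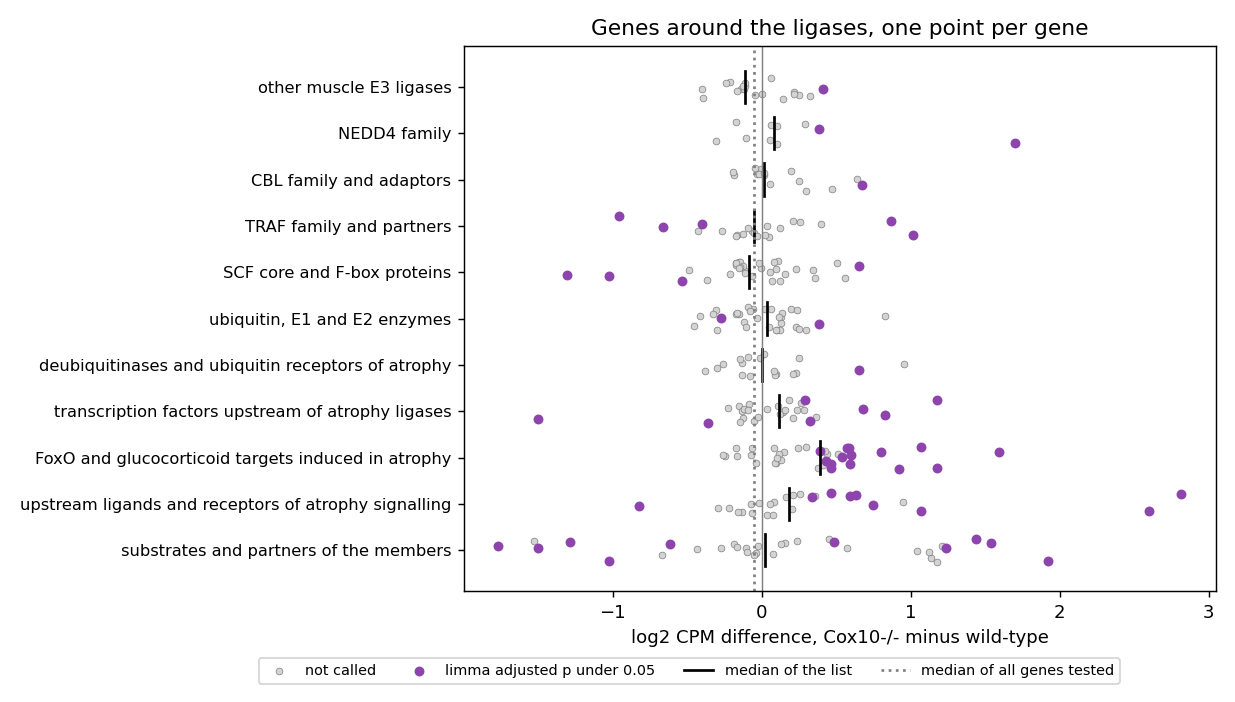
Log2 CPM difference, Cox10-/- minus wild-type, of every gene in the lists around the ligases (1 point per gene, purple where limma's adjusted p is under 0.05), with each list's median as a bar and the median of all genes as a dotted line. The list of FoxO and glucocorticoid targets has a median of 0.392 and 14 rises, whereas the medians of the ubiquitin transfer lists lie between -0.11 and 0.08.

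Among 26 ligands and receptors that signal to the atrophy ligases, 8 rose and 1 fell (median 0.181), 34.6% in all, against 16.1% of all genes. Il6ra, the interleukin-6 receptor, rose by 2.82 ± 0.15 (adjusted p = 8.5e-07) and was the list's largest change. Insr rose as given above, and Igf1r, the IGF1 receptor, rose by 0.47 ± 0.08 (adjusted p = 0.00146, and 0.104 with the 2 means). Igf1 itself, chosen after its value was seen, fell by 0.83 ± 0.18 (adjusted p = 0.00927). Bmp7, a ligand of the pathway that restrains Fbxo30 in muscle, rose by 0.75 ± 0.13 (adjusted p = 0.00211), and Fst, an inhibitor of myostatin and activins chosen after its value was seen, by 2.60 ± 0.52 (adjusted p = 0.00539). Il1r1, Acvr1b and Tnfrsf1a completed the rises, the last of them lost in 7 of the 8 fits.

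Transcripts of the ligases' known substrates and partners moved both ways, with 5 of 32 higher and 5 lower (median 0.025). Together 31.2% of them were called, against 16.1% of all genes. Ccnd1, which encodes cyclin D1, a target of Fbxo31, fell by 1.77 ± 0.15 (adjusted p = 1.72e-05). Mybpc1, slow myosin-binding protein C of the thick filament, fell by 1.5 ± 0.11 (adjusted p = 6.33e-06). Pax7, a target of Nedd4, fell by 1.29 ± 0.11. Nebl, nebulette, rose by 1.24 ± 0.17 (adjusted p = 4.91e-04), and Ckm, muscle creatine kinase and a target of Trim63, rose by 1.54 ± 0.39 (adjusted p = 0.0196, lost in 2 of the 8 fits). The remaining calls were falls of Myod1 and Notch1 and rises of Ptch1, Tcap and Mybpc2. The count of rises was 2 without Cox10-/- replicate 3, 3 without wild-type replicate 1, 8 without Cox10-/- replicate 2, 11 in replicates 3 and 4 only and 1 with the 2 means. These are transcript levels, and the proteins that ligases act on were not measured.

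Genes whose level followed the members most closely over the 8 libraries were ranked by Pearson's r on log2 CPM, as a description only. Genes that differ between genotypes in the same direction, by more than the spread within each, correlate with one another for that reason alone. The libraries also share the replicate sets and the depth. For Trim63 these were Cyp2d22 and Insr (r = 0.996 each), Prex2 and Ntn4 (0.995 each) and Uaca (0.993), among 204 genes with r above 0.95. For Fbxo31 they were Slc29a1 (0.994), Klf15 (0.992) and Tns1 (0.991), for Fbxo32 Ccdc141 (0.996), Gria3 and Gpatch8 (0.991 each), and for Cblb Map3k3 (0.996), Lvrn (0.995) and Ston1 (0.994). The number of close followers depends on how far a member's genotypes lie apart relative to the spread within each genotype. For the members whose genotypes overlap, the closest were Rbm25, Ipo7 and Pafah1b1 for Fbxo30, Lars2, Laptm4a and Lamp1 for Nedd4, and Ncbp1, Gpr89 and Ift52 for Traf6.

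Among the nearest genes of the table on either side of each member, the neighbours of Trim63 were not called. Pdik1l differed by -0.11 ± 0.23 (limma, adjusted p = 0.796) and Slc30a2, a zinc transporter, averaged 1.32 ± 0.66 in Cox10-/- and 0.22 ± 0.45 in wild-type cells (log2 CPM, SD, n = 4 each; adjusted p = 0.0817). Both neighbours of Fbxo31 rose, Foxc2 by 1.18 ± 0.29 (adjusted p = 0.017) and Map1lc3b as given above. Of the neighbours of Nedd4, Prtg fell by 1.09 ± 0.22 (adjusted p = 0.00651), and Gm18014 was not called. The neighbours of Fbxo32, Fbxo30, Traf6 and Cblb were not called.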

How the data were processed

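RNA-seq of 4 Cox10-/- and 4 wild-type muscle stem cell samples was used as 1 table of log2 CPM values deposited by the authors (with a floor at a CPM of 1, rounded to 2 decimals). Per the submitters' processing notes, Trim Galore, HISAT2, featureCounts, DESeq2 and the build mm9 were used; versions, strand counting and multi-mapping are, in the sources used here, not given. Genotypes and replicates came from the labels. Rows without a gene (1054) were dropped, 21 symbols had been turned into dates, and a column of averages was not used.

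Low values were whole multiples of 1 read (100% within 0.1 of a whole number, up to 20 reads), which gave each library's depth and the read numbers of members. They cover counting error only. Genotypes were compared with limma 3.58.1 in R 4.3.3 on the deposited log2 values, with no added pseudocount, genotype alone, a trended variance prior, genes above 0 in at least 4 libraries (17801 of 17847) and Benjamini-Hochberg adjustment at 0.05. The function was tested on simulated data. Errors of differences are SEs of that fit, and ± SD is over 4 libraries. For a gene with libraries at 0, the difference is measured from the floor.

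The members, lists and tests were chosen with earlier results of these data known. Named genes were the members, Cox10, Pax7, up to 4 called genes with the smallest p per list, relatives named in the lists, and for each member the 3 genes (5 for Trim63) with the highest r among genes whose log2 CPM averaged 2 or more; exceptions are stated. Other filters, scalings, pseudocounts, variance priors, a replicate block and leaving out libraries were alternatives. The means of replicates 1 and 2 and of 3 and 4 were tested because these libraries were most alike. Fits of replicates 1 and 2 only, of 3 and 4 only, and without the 2 shallowest libraries were added after the data were seen. Promoters are RefSeq sequences of GRCm38.p6. Exon lengths are from a GRCm38 annotation and served only for levels per length. No coordinates of mm9 were used. The calls of a list of CBL proteins and adaptors are not reported here by gene.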

Additional observations from a re-analysis of the deposited data

Results flagged for a closer look

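Among 182 groups of 4 libraries (91 named genes in each genotype), 10 had 1 library that stood apart by Dixon's criterion, and chance flags about 1 in 20 groups. Of these, 6 concerned Cox10-/- replicate 4, the shallowest library. Cox10-/- replicate 4 had 2.05 log2 CPM of Cox10, against 3.49 to 3.69 in the other Cox10-/- libraries, and rested on 7 reads. In the same library Ubr2 had 8.67 (others 8.78 to 8.79), Cand2 3.24 (others 4.37 to 4.55), Ccnd1 4.56 (others 4.88 to 4.93) and Pecam1 3.76 (others 4.70 to 4.86), whereas Trim55 had 2.41 (others 1.78 to 1.82). Insr had 8.66 in Cox10-/- replicate 1 (others 8.76 to 8.78). Flt1, an endothelial marker, had 5.17 in Cox10-/- replicate 3 (others 4.75 to 4.79). In wild-type replicate 1, Pecam1 had 4.32 (others 2.70 to 2.75) and Cyp2d22 had 6.85 (others 6.76 to 6.77). None of the 7 ligases had a library that stood apart in this way.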

How the results depend on the processing

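The 7 differences kept their sign under all alternatives run, except Nedd4, which was 0.04 with median centring, 0.2 in replicates 3 and 4 only (-0.28 in replicates 1 and 2 only) and between -0.15 and 0.02 without single libraries, and Fbxo30, which was 0 in replicates 3 and 4 only. Trim63 was 4.93 with log2(CPM + 1), 5.68 in replicates 1 and 2 only and 6.13 in replicates 3 and 4 only. Without single libraries, Trim63 lay between 5.82 and 5.99, Fbxo32 between 0.84 and 1.12, Fbxo31 between 1.05 and 1.35, Cblb between 0.67 and 0.78, Fbxo30 between -0.27 and -0.09, and Traf6 between -0.3 and -0.19.

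With the means of replicates 1 and 2 and of 3 and 4, 858 genes were called (445 rose, 413 fell), and 21 in the lists (14 rose, 7 fell); fewer samples entered that fit. Without single libraries, 1840 to 2907 genes were called (873 to 1439 rose, 952 to 1725 fell), and 39 to 57 in the lists (29 to 42 rose, 9 to 15 fell). In replicates 1 and 2 only, 871 genes fell. Replicates 3 and 4 only gave 60 rises in the lists, and a variance prior without a trend gave 8 falls there; the cause was not tested. For named genes outside the 7, 165 of the recomputed calls were lost. Beside these, 1327 recomputed results of all kinds stayed the same, 103 moved and 1 was stronger. In the fit without the 2 shallowest libraries Trim55 differed by -0.99 and passed the threshold (adjusted p = 0.0391).

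With the replicate block, 3201 genes were called (1573 rose, 1628 fell), and 65 in the lists (48 rose, 17 fell); the list of substrates and partners then had 10 rises. The numbers were not taken as pairs: same-numbered libraries correlated at 0.045, 0.137, 0.109 and 0.13, and not every library correlated best with its own number. Over genes averaging 2 log2 CPM or more the values were 0.101, 0.203, 0.161 and 0.19. Over those genes Cox10-/- replicate 2 correlated at 0.243, 0.203, -0.155 and -0.309 with wild-type replicates 1 to 4. Cox10-/- replicate 3 correlated at -0.13, -0.235, 0.161 and 0.243 with them. The split was less clear for Cox10-/- replicates 1 and 4, with 0.026 and -0.017 for wild-type replicate 3. A term for the sets 1 and 2 against 3 and 4 was not fitted. Depth limits what can be said of Trim63 in wild-type cells to a CPM of 1 or less.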

Other observations

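Symbol families were counted after the values were seen, members left out. Of 47 TRIM genes, 3 rose (Trim66 by 1.53 ± 0.22, Trim62 by 0.98 ± 0.22 and Trim3 by 0.68 ± 0.12, log2, SE) and 2 fell (Trim2 by 0.34 ± 0.08 and Trim34a), with a median of -0.025. Of these 5, only Trim66 was called with the 2 means per genotype (adjusted p = 0.0104). The called share of the TRIM genes was 10.6%, against 16.1% of all genes. Of 56 F-box genes, 2 rose and 3 fell (8.93% called, median 0.001). Kelch-like genes, many of which are adaptors of cullin 3 ligases, held 7 rises and 4 falls among 32 (34.4% called, against 16.1% of all genes). RNF genes had 5 rises and 3 falls among 69 (11.6% called), and USP genes 5 rises and 2 falls among 47 (14.9%). ASB genes, cullin 5 adaptors that are common in muscle, had 1 rise and no fall among 13 (7.69%). Of 39 proteasome subunits, none rose and 2 fell (Psmd14 by 0.75 ± 0.15, adjusted p = 0.00534, and Psmd1 by 0.32 ± 0.10, adjusted p = 0.0462 and lost in 7 of the 8 fits without 1 library). Of the 39, 5.13% were called and 35 lay below 0, with a median of -0.233, against -0.055 for all genes.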
